A study of Mus musculus with 6 samples.

Results

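The genes that carry sugars across the small intestinal epithelium, with 3 enzymes that process fructose and glucose inside the cell, were examined in jejunal mucosa of intestine-specific Rbm47-knockout mice. They were 9 genes, chosen by name, of the 38561 Ensembl genes counted, and all 9 were among the 16425 genes with enough reads to be tested. Sodium/glucose cotransporters of the Slc5a family use the inward pull on sodium to concentrate sugar in the enterocyte, and facilitative transporters of the Slc2a family let sugar move down its gradient. In the classical view, glucose and galactose enter through Slc5a1, fructose enters through Slc2a5, and all 3 leave on the blood side through Slc2a2. Within the cell, Khk phosphorylates fructose, while Fbp1 and G6pc act late in gluconeogenesis.

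Messenger RNA was sequenced from 6 pools of small intestinal mucosa, 3 of the genotype Rbm47_IKO and 3 labelled wt, from C57BL/6J mice aged 8 to 12 weeks. Each pool combined RNA of 3 mice of both sexes according to its label, and of 3 to 4 mice according to the methods, so that p-values measure the spread between pools and not between mice. The study's methods give the controls as Rbm47 fl/fl mice, and the knockout as the same floxed allele with a Cre driven by the villin promoter, expressed in small and large intestine. The pools held 31560320 to 38951830 counts each. Levels are given in CPM, the read count of a gene scaled by the TMM-normalized library size, and differences as log2 fold changes, Rbm47-IKO minus wt.

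The targeted gene did not separate the genotypes in the direction of its label. Rbm47, an RNA-binding protein gene, was at 603, 625 and 619.8 CPM in the pools labelled Rbm47-IKO and at 459.8, 449.9 and 472 CPM in wt, so that the pools labelled knockout were all higher. The log2 fold change was 0.42 (SE 0.10, n = 3 and 3) with a Benjamini-Hochberg adjusted p of 0.0751 in the edgeR quasi-likelihood test, and DESeq2 called it higher with an adjusted p of 0.00105. These counts cover the whole gene, and reads over the deleted part could not be separated from the rest. Of other genes whose expression was also assayed on its own in this mouse line, Ghrl, Cck and Gip had log2 fold changes of −1.44, −1.24 and −0.76 with no overlap between the pools, and Cdx2 one of 0.56 with no overlap. Hoxb13 was at 2.60 to 5.18 CPM in the pools labelled Rbm47-IKO and at 0 to 0.553 CPM in wt, while Muc2 (0.25) and Tff3 (0.06) overlapped. Whether labels were exchanged was not tested, and every direction below refers to the libraries labelled Rbm47-IKO. All 12 markers of enterocytes were detected and tested. Their summed level was 56036 to 62201 CPM in the pools labelled Rbm47-IKO and 62641 to 67345 CPM in wt, with 8 members higher and 4 lower on average and none called. The lower sum rested on Apob and Apoa4, apolipoprotein genes at 13061 to 14178 CPM together against 22991 to 30023 CPM in wt. The other 10 markers summed to 42258 to 48223 CPM against 37322 to 39649.9 CPM, higher in every pool labelled Rbm47-IKO. This split was made after the values were seen.

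None of the 9 genes passed an adjusted p of 0.05 in edgeR, against 2.7% of all genes tested. This was also the count with limma-voom, which called 2.62% of all genes. At an unadjusted p under 0.05, edgeR gave 5 of the 9 against 16.8% of all genes, and all 5 were lower in the pools labelled Rbm47-IKO, a direction with that p in 8.21% of all genes. They were Slc5a1, Slc2a7, Slc5a9, Fbp1 and G6pc. In these same 5 genes every pool labelled Rbm47-IKO lay below every wt pool, which held for 11.6% of all genes. DESeq2 called 4 of the 9, all lower, against 7.57% of all genes. The median log2 fold change of the 9 was −0.43 beside −0.0059 for all genes tested, with 6 of the 9 lower and 3 higher on average. In bulk mucosa, fewer cells of a type and less RNA per cell cannot be told apart.

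**Figure D1:**
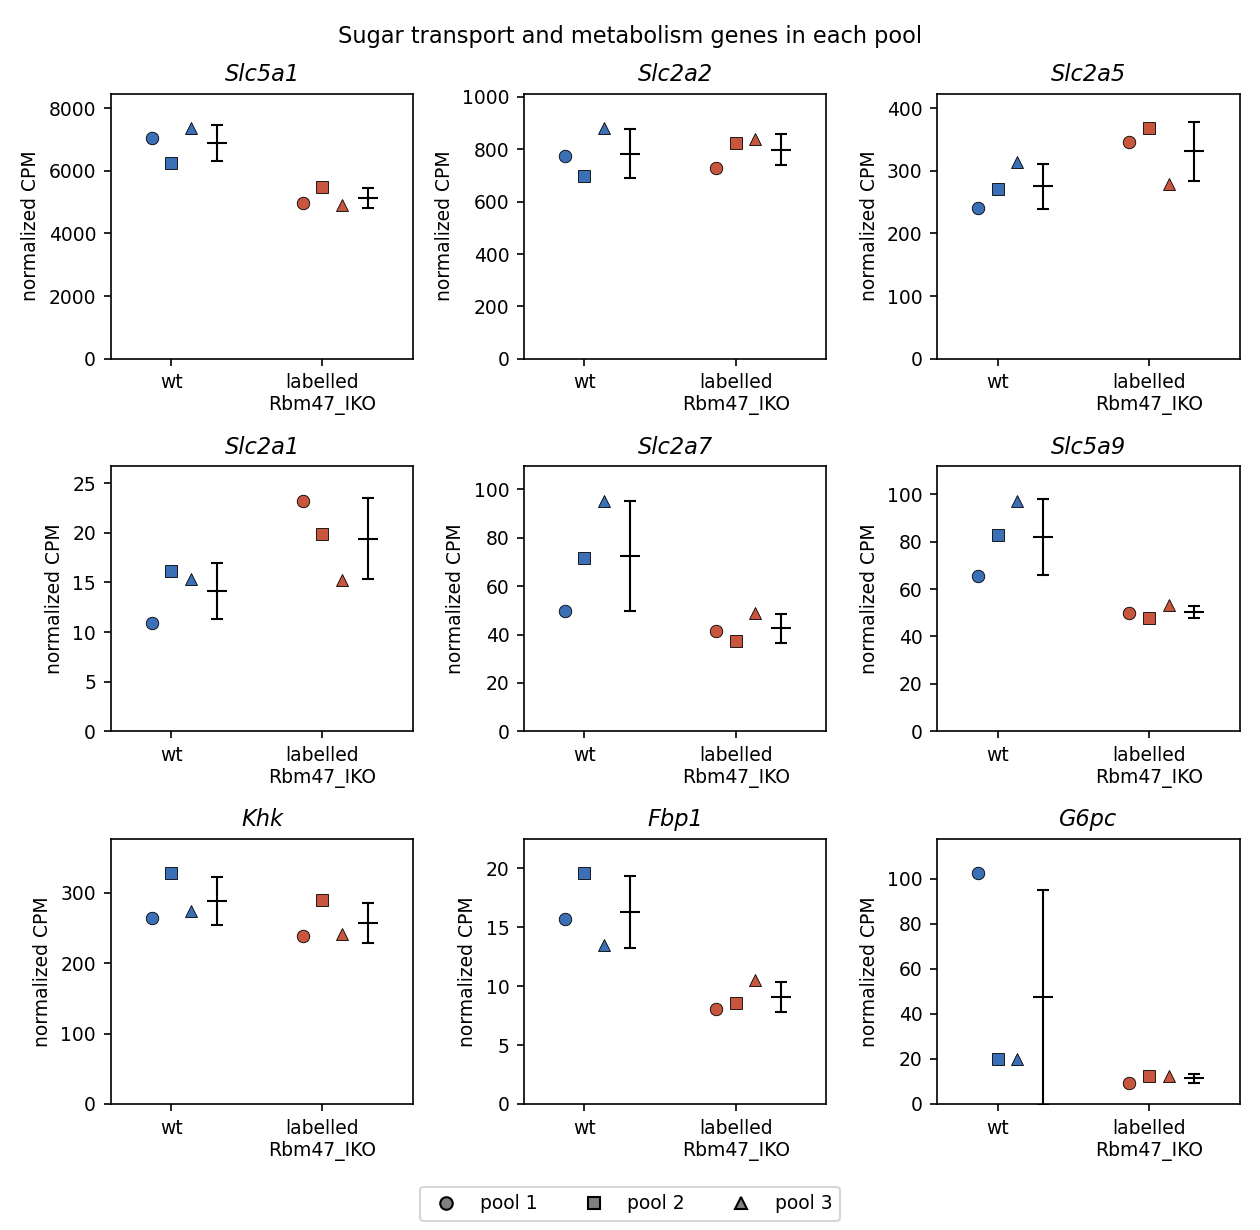
Normalized CPM of each gene in each of the 6 pools, on linear axes from 0, with wt in blue and the pools labelled Rbm47-IKO in red; marker shape gives the pool number and the black mark the mean with its SD. Slc5a1, Slc2a7, Slc5a9, Fbp1 and G6pc show no overlap between the genotypes, and 1 wt pool stands at 102 CPM for G6pc, where the lower end of the SD bar falls below the axis.

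The start regions of the genes are shown for the 4 genes with no overlap that have an entry in the table used, and for Slc2a5, which lies beside Slc2a7. Each run is 300 bases of RefSeq sequence (GRCm38.p6), from 250 bases before the RefSeq start of the gene to 50 bases from it, written 5′ to 3′ on the strand of the gene. Of the 9 genes, 8 had such an entry, and Slc5a9 had none. The RefSeq start is not always that of the count tables, whose gene positions are given further on. It is the same for Slc5a1 and Fbp1, 61 bases downstream for Slc2a5, 155 bases downstream for G6pc and 85 bases upstream for Slc2a7, whose window ends before the start in the tables. Capitals mark matches, searched on both strands, to 4 short motifs of factors known from intestinal genes. Such factors include HNF1, for which the core of its site, GTTAAT, was searched. The E box CACGTG is of the kind that the sugar-responsive factors Mlxipl and Mlx bind. For zinc finger factors of the Gata family the letters were AGATAA. For the homeobox factors Cdx1 and Cdx2 they were TTTATG, and no matches overlapped.
Slc5a1, chr5:33103969-33104268, plus strand: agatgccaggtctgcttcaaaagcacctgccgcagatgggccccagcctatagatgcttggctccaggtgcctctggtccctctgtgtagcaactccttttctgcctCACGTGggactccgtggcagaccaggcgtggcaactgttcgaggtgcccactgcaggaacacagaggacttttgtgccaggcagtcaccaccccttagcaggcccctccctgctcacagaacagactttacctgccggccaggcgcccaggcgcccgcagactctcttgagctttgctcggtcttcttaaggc
Slc2a7, chr4:150148637-150148936, plus strand: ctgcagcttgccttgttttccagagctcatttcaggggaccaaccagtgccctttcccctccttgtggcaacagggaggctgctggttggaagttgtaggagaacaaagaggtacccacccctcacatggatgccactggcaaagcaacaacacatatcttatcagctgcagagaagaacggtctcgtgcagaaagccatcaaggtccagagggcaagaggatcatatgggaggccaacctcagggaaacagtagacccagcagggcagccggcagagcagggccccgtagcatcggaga
Slc2a5, chr4:150119094-150119393, plus strand: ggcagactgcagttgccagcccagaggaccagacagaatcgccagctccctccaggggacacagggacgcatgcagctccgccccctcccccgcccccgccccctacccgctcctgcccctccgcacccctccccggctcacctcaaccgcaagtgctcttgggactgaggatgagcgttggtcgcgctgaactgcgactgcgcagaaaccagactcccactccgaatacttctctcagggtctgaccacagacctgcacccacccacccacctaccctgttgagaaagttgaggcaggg
Fbp1, chr13:62888233-62888532, minus strand: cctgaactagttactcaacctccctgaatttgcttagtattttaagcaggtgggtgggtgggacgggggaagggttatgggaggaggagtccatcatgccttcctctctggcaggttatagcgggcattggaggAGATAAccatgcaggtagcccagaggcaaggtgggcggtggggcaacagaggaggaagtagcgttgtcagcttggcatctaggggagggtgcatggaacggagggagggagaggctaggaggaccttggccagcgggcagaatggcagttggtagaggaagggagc
G6pc, chr11:101367466-101367765, plus strand: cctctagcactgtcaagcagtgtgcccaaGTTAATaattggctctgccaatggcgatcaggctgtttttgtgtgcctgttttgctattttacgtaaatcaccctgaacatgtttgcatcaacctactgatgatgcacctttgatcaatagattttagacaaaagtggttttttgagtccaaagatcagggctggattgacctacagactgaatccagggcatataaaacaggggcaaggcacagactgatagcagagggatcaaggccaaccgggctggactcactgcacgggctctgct

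CACGTG was found in the Slc5a1 window, 143 to 138 bases before the RefSeq start, from which all these distances are counted, and in the Khk window, 71 to 66 bases before it. These letters occur in 7.15% of 32851 RefSeq promoter windows of the same length. GTTAAT was found for G6pc, 221 to 216 bases before the start, and for Khk, 60 to 55 bases before it, against 7.1% of windows. AGATAA was found for Fbp1, 116 to 111 bases before the start, against 11.2% of windows. TTTATG, which 11.9% of windows hold, was in none of the 8 windows of these genes. The windows of Slc2a7 and Slc2a5 held none of the 4 motifs, nor did those of Slc2a2 and Slc2a1. A match is a description of these letters and not a bound site.

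Slc5a1 (ENSMUSG00000011034, chr5:33104219-33162872 in GRCm38, as for all gene positions here), the brush border glucose and galactose carrier known as SGLT1, was the most abundant of the 9 genes. Its level was 4982, 5495 and 4905 CPM in the pools labelled Rbm47-IKO and 7038, 6258 and 7360.1 CPM in wt. The highest pool labelled Rbm47-IKO was below the lowest wt pool. The means were 5127 ± 321 and 6885 ± 567 CPM (SD, n = 3 and 3), which placed the level in the pools labelled Rbm47-IKO at 74.5% of wt. edgeR gave a log2 fold change of −0.43 (SE 0.14), with an unadjusted p of 0.0164 and an adjusted p of 0.170 in edgeR. When all 12 enterocyte markers, whose lower sum rests on 2 of them, served as the library size, it was −0.28 with an adjusted p of 0.168.

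Slc5a9 (ENSMUSG00000028544, chr4:111875375-111902918), a sodium-coupled carrier of mannose, fructose and glucose known as SGLT4, moved the same way at a far lower level. It was at 50.0, 47.9 and 53.2 CPM in the pools labelled Rbm47-IKO and at 65.4, 82.9 and 97.2 CPM in wt. The pools labelled Rbm47-IKO lay close together, with an SD of 5.25% of their mean, while the wt pools spread over 19.5% of theirs. In edgeR the log2 fold change was −0.70 (SE 0.15) and the adjusted p 0.0589. The call depended on processing, with 7 of 13 alternative analyses placing Slc5a9 past the threshold, among them DESeq2 with an adjusted p of 0.00186.

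Slc2a7 (ENSMUSG00000062064, chr4:150148972-150168482), which encodes the intestinal hexose transporter GLUT7, was also lower in each pool labelled Rbm47-IKO. The values were 41.5, 37.1 and 48.8 CPM against 49.9, 71.7 and 95.3 CPM in wt. The gap between the closest pools was narrow, since wt pool 1 was only just above the highest pool labelled Rbm47-IKO. This gave a log2 fold change of −0.77 (SE 0.23) and an edgeR adjusted p of 0.134. Without wt pool 1 it was −0.98 with an adjusted p of 0.0473, without wt pool 3 it was −0.51 with 0.330, and no fit without another pool called it (0.158 to 0.455).

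Slc2a5 (ENSMUSG00000028976, chr4:150119283-150144169), the fructose carrier of the brush border known as GLUT5, ends 4802 bases before Slc2a7 begins, on the same strand. It was at 346, 368 and 279 CPM in the pools labelled Rbm47-IKO and at 241, 270.3 and 314 CPM in wt. The genotypes overlapped, with the third wt pool above the third pool labelled Rbm47-IKO. On average it was higher, by 0.27 on the log2 scale (SE 0.15), with an edgeR adjusted p of 0.444. The longest open reading frames of Slc2a5 and Slc2a7 were 64.8% identical, with no shared run over 17 bases.

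Slc2a2 (ENSMUSG00000027690, chr3:28697903-28728356), the GLUT2 exit route on the basolateral side, was level between the genotypes. It was at 730.3, 824 and 840.4 CPM in the pools labelled Rbm47-IKO and at 773, 697 and 881 CPM in wt. The ranges overlapped almost completely. The log2 fold change was 0.03 (SE 0.13, edgeR adjusted p of 0.957), a value whose sign was not kept without each pool (−0.050 to 0.12).

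Slc2a1 (ENSMUSG00000028645, chr4:119108711-119137330), which encodes the widely expressed glucose transporter GLUT1, was at 23.2, 19.8 and 15.2 CPM in the pools labelled Rbm47-IKO. In wt it was at 10.9, 16.1 and 15.3 CPM, so that the genotypes overlapped at the lowest pool labelled Rbm47-IKO. The difference was 0.46 on the log2 scale (SE 0.21), with an edgeR adjusted p of 0.323. It fell to 0.30 without wt pool 1.

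Among the enzymes, Khk (ENSMUSG00000029162, chr5:30921556-30931246), the ketohexokinase that commits fructose to breakdown, was at 239, 289.8 and 242 CPM in the pools labelled Rbm47-IKO. In wt it was at 265, 328 and 275 CPM, and the genotypes overlapped. The difference was −0.17 on the log2 scale (SE 0.13), with an edgeR adjusted p of 0.609. It was −0.067 without wt pool 2 and −0.27 without pool 2 labelled Rbm47-IKO. With enterocyte markers as the library size, which shifted the median of all genes by 0.14, it was −0.034. It was −0.31 with an offset for GC content and −0.30 with the summed level of Y-linked genes added as a term.

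Fbp1 (ENSMUSG00000069805, chr13:62864753-62888282), a fructose-1,6-bisphosphatase of gluconeogenesis, was at 8.06, 8.61 and 10.5 CPM in the pools labelled Rbm47-IKO and at 15.7, 19.6 and 13.5 CPM in wt. No pool overlapped. These levels rested on 279 to 743 reads per pool. In edgeR the difference was −0.84 on the log2 scale (SE 0.19) with an adjusted p of 0.0619, and DESeq2 gave an adjusted p of 0.00166.

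G6pc (ENSMUSG00000078650, chr11:101367561-101377903), the catalytic subunit of glucose-6-phosphatase, had the lowest fold change of the 9, and its size came from 1 pool. It was at 9.16, 12.5 and 12.3 CPM in the pools labelled Rbm47-IKO. In wt it was at 102, 19.8 and 20.0 CPM, so that wt pool 1 stood far above the other wt pools and the SD of the wt pools was 101% of their mean. The log2 fold change was −2.06 (SE 0.64) with an edgeR adjusted p of 0.148, and −0.81 with an adjusted p of 0.0771 when wt pool 1 was left out. Without that pool the same count of 5 genes, all lower, had no overlap, against 16.5% of all genes.

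The wt pool 1 also held the highest level of several enzymes of these pathways, which were picked out after their values were seen. Pck1, which feeds gluconeogenesis, was at 1516 CPM there and at 564 and 469 CPM in the other wt pools, against 559 to 757 CPM in the pools labelled Rbm47-IKO. Its log2 fold change was −0.31 (SE 0.42, edgeR adjusted p of 0.808) and turned to 0.41 without wt pool 1. Akr1b7, an aldo-keto reductase gene, was at 74.5 CPM in wt pool 1 and at 33.5 and 33.4 CPM in the others. Tkfc, the triokinase that phosphorylates the glyceraldehyde made from fructose, was at 357 CPM there and at 215 and 205 CPM in the others.

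Per kilobase of gene length, the scale on which genes can be compared, Slc5a1 led with 1677 ± 138 CPM per kb in wt and 1249 ± 78.1 in the pools labelled Rbm47-IKO (SD, n = 3 each, as throughout this paragraph). Slc2a2 followed with 285 ± 33.5 and 290.0 ± 21.5, then Khk with 173 ± 20.4 and 154 ± 17.0. Slc2a5 came next with 80.8 ± 10.7 and 97.3 ± 13.7, and then Slc2a7 with 38.7 ± 12.2 and 22.8 ± 3.16 CPM per kb. The first 5 places were the same in both genotypes and no 2 neighbours among them overlapped. Below them the order differed. In wt it ran G6pc (19.6 ± 19.7), Slc5a9 (15.8 ± 3.07), Fbp1 (9.56 ± 1.81) and Slc2a1 (4.95 ± 0.977), with G6pc overlapping Slc2a7 and Slc5a9. In the pools labelled Rbm47-IKO it ran Slc5a9 (9.72 ± 0.510), Slc2a1 (6.80 ± 1.41), Fbp1 (5.33 ± 0.764) and G6pc (4.69 ± 0.777 CPM per kb), where Fbp1 overlapped both Slc2a1 and G6pc.

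**Figure D2:**
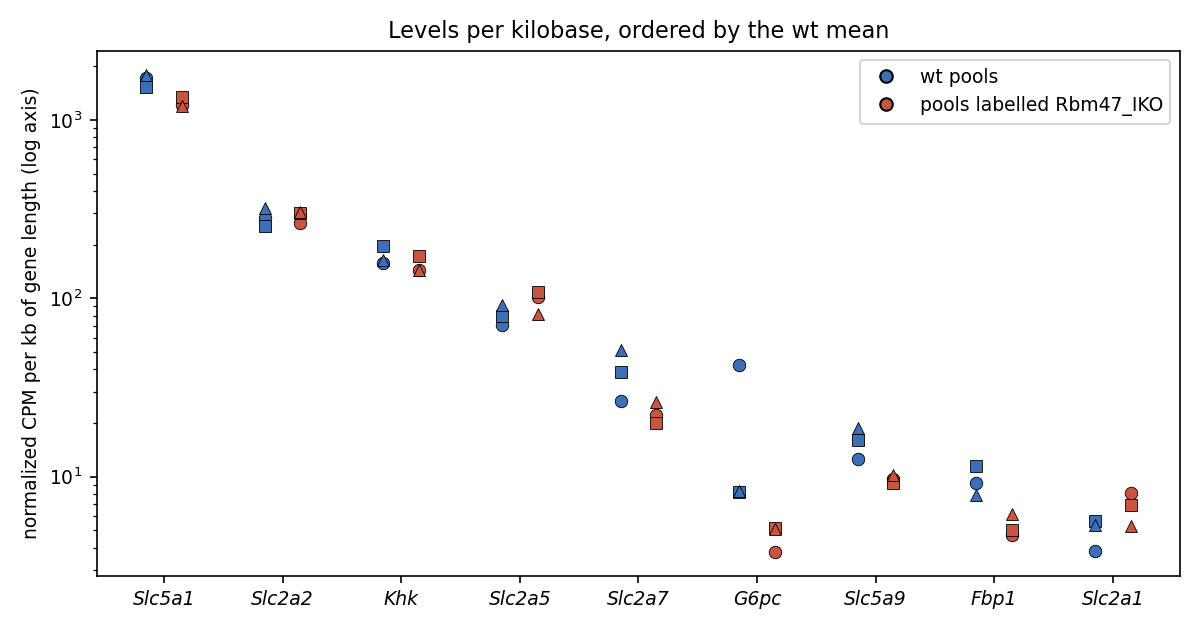
Level of each gene in normalized CPM per kilobase of gene length, on a log axis, with genes ordered by their wt mean; each point is 1 pool, wt in blue and labelled Rbm47-IKO in red, and marker shape gives the pool number. Slc5a1 sits above all others at 1249 to 1677 CPM per kb by genotype mean, and the order changes between the genotypes only below Slc2a7.

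Ratios within a pool do not depend on the library size, and they were chosen after the values were seen, so that they are given with no test. The Slc5a1 to Slc2a5 ratio, of the glucose carrier to the fructose carrier of the brush border, was 14.4, 14.9 and 17.6 in the pools labelled Rbm47-IKO and 29.2, 23.2 and 23.5 in wt. Slc2a7 stood at 0.120, 0.101 and 0.175 of its neighbour Slc2a5 in the pools labelled Rbm47-IKO and at 0.207, 0.265 and 0.304 in wt. The ratio of Slc2a2 to Slc5a1, exit to entry, was 0.147, 0.150 and 0.171 against 0.110, 0.111 and 0.120. None of these 3 ratios overlapped between the genotypes, while that of Slc5a9 to Slc5a1 did.

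**Figure D3:**
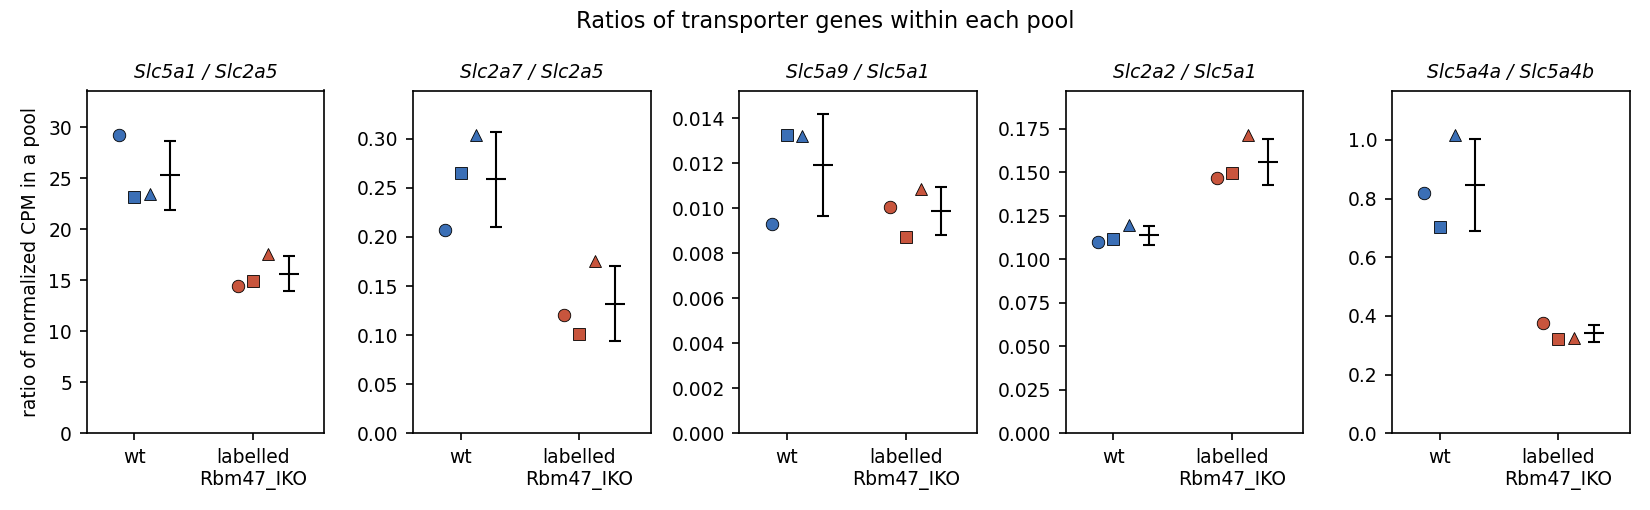
Ratio of the normalized CPM of 2 transporter genes within each pool, on linear axes from 0, with wt in blue and the pools labelled Rbm47-IKO in red; marker shape gives the pool number and the black mark the mean with its SD. All but Slc5a9 to Slc5a1 separate the genotypes, and that of Slc5a4a to Slc5a4b lies at 0.321 to 0.375 against 0.705 to 1.02.

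The wider sugar machinery was described from 9 lists holding 88 further genes, of which 84 were tested. In edgeR, 1 was called lower and 1 higher, where 1.25% of all genes were called lower and 1.45% higher. Their median log2 fold change was 0.0082, next to −0.0059 for all genes. By pools, 14 of the 84 were higher with no overlap and 11 lower, where 11.7% of all genes were higher and 11.6% lower.

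The gene called lower was Slc5a4a, which encodes a relative of Slc5a1 in the SGLT3 group, known as glucose sensors. It was at 104, 115 and 108 CPM in the pools labelled Rbm47-IKO and at 157, 189.6 and 193 CPM in wt. Its log2 fold change was −0.72 (SE 0.12), with an edgeR adjusted p of 0.0258. The call held without wt pool 1 (adjusted p of 0.0226) or wt pool 2 (0.0463) and was lost without any of the other 4 pools (0.0874 to 0.143), with the pool number as a block (0.0711) and with the summed level of Y-linked genes added as a term (0.0778). Its neighbour on chromosome 10, Slc5a4b of the same group, went the other way at 278, 359 and 333 CPM against 192, 269 and 190.2 CPM. All pools labelled Rbm47-IKO were higher for Slc5a4b, with a log2 fold change of 0.58 (SE 0.17) and an edgeR adjusted p of 0.137. The ratio of Slc5a4a to Slc5a4b was 0.375, 0.321 and 0.324 in the pools labelled Rbm47-IKO and 0.818, 0.705 and 1.02 in wt. The open reading frames were 78.9% identical with a longest shared run of 50 bases, so that some reads could have been assigned to either. Slc5a1 shared at most 26 bases with either gene.

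The remaining 15 of the 17 other sugar transporters gave no call, and over all 17 the median log2 fold change was 0.06. Slc5a11, a myo-inositol carrier and the most abundant per kb of those not yet named, was at 221 to 272 CPM against 204 to 269.9 CPM. Slc2a4, the insulin-responsive transporter of muscle and fat, ranged from 1.47 to 18.4 CPM with overlap between the genotypes. It was highest in the pools with the most smooth muscle RNA, where the summed level of 6 muscle markers was 3302 CPM (pool 3 labelled Rbm47-IKO) and 2803 CPM (wt pool 2) and 90.7 to 586 CPM elsewhere.

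For fructose and polyol metabolism, 6 of 8 tested genes were lower and 2 higher on average, with none called and a median log2 fold change of −0.30. In 4 of the 8 every pool labelled Rbm47-IKO was lower, as in 11.6% of all genes, among them Tkfc, Akr1b7 and Glyctk. Tkfc was at 161, 172 and 196 CPM in the pools labelled Rbm47-IKO, with a log2 fold change of −0.55 (SE 0.22) and an edgeR adjusted p of 0.259. Glyctk, the glycerate kinase, was at 7.74 to 9.16 CPM against 10.1 to 13.5 CPM. Akr1b8 was the 1 gene of this list higher in every pool labelled Rbm47-IKO, at 3.43 to 3.61 against 1.34 to 2.74 CPM.

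In gluconeogenesis 8 of 9 genes were tested, 4 higher and 4 lower on average and none called. Fbp2, which lies beside Fbp1 and encodes the other fructose-bisphosphatase, was far more abundant than Fbp1 at 178, 195 and 181 CPM against 230.0, 263 and 257 CPM in wt. It was lower in all 3 pools labelled Rbm47-IKO, with a log2 fold change of −0.44 (SE 0.10) and an edgeR adjusted p of 0.0777. The open reading frames of Fbp1 and Fbp2 were 70.1% identical with a longest shared run of 23 bases. Slc37a4, the carrier that brings glucose-6-phosphate to G6pc, was level at 99.8 to 113 CPM against 96.9 to 113 CPM.

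In glycolysis, 9 of 21 genes were higher and 12 lower on average, and the 1 call was Aldoc, an aldolase best known from brain. Aldoc was at 11.3, 14.8 and 12.8 CPM in the pools labelled Rbm47-IKO and at 2.29, 5.09 and 5.52 CPM in wt. The log2 fold change was 1.59 (SE 0.32) with an edgeR adjusted p of 0.0481, close to the threshold. It held without wt pool 1 (adjusted p of 0.0283) and was lost without any of the other 5 pools (0.0581 to 0.231), with RLE scaling (0.0525), with the pool number as a block (0.0612), with an offset for GC content (0.0666) and with the Y-linked term (0.172). The hexokinase gene Hk2 was at 100.4, 89.2 and 57.5 CPM against 46.0, 45.0 and 47.7 CPM, with a log2 fold change of 0.83 (SE 0.19) and an edgeR adjusted p of 0.0719. Hk1 was higher in every pool labelled Rbm47-IKO as well, at 19.7 to 23.1 against 12.1 to 19.2 CPM. Of the 21 genes, 3 were higher and 1 lower with no overlap, where 11.7% of all genes were higher and 11.6% lower. The lower gene was Eno1, at 64.2 to 71.7 against 80.6 to 95.3 CPM (log2 fold change −0.36, SE 0.11, edgeR adjusted p of 0.128). Galm, the mutarotase that readies galactose for its kinase, was lower at 129, 135 and 112 CPM against 159.9, 221 and 231 CPM, without a call (log2 fold change −0.70, SE 0.16, edgeR adjusted p of 0.0686).

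**Figure D4:**
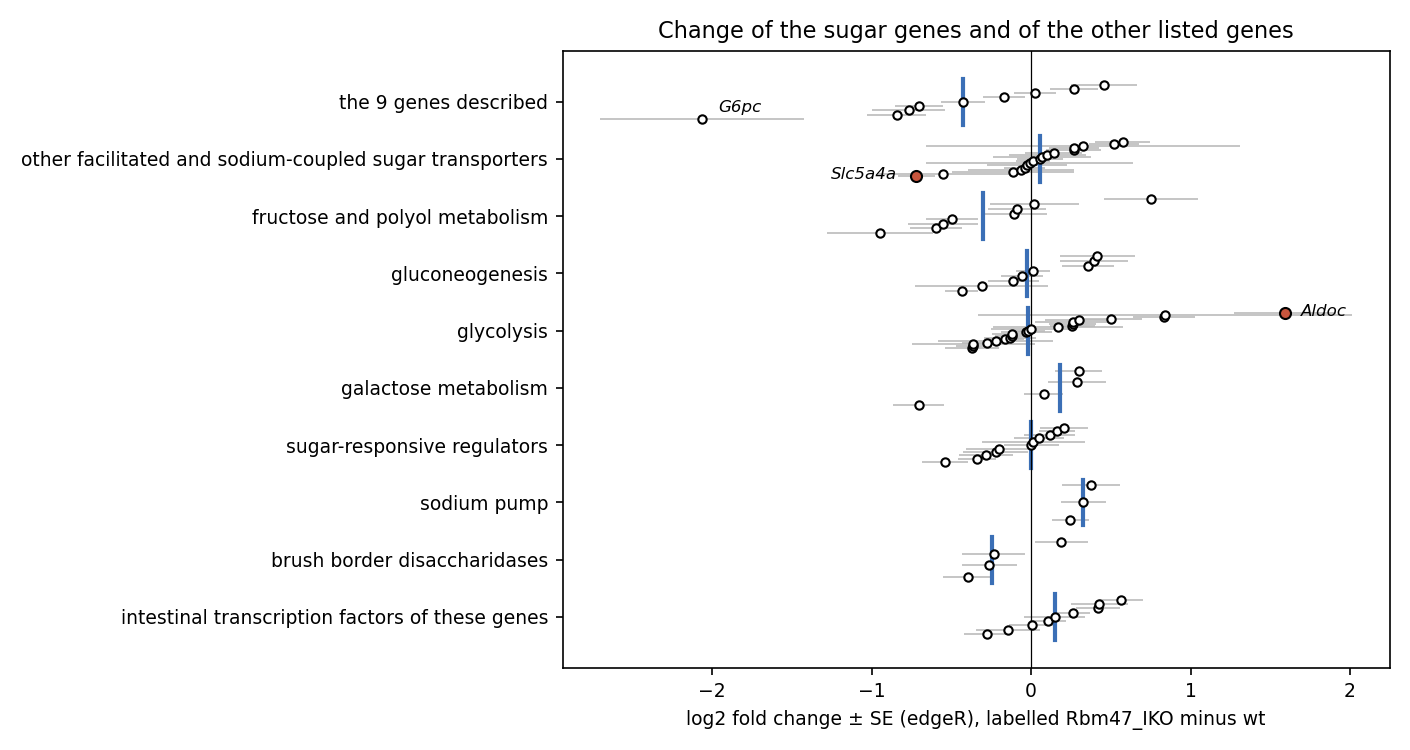
Log2 fold change, labelled Rbm47-IKO minus wt, of every tested gene in each list, with grey bars for the SE and a blue line for the list's median; filled red points mark genes with an edgeR adjusted p of 0.05 or less. Of the 9 genes described none is filled and their median lies at −0.43, while Slc5a4a at −0.72 and Aldoc at 1.59 are the filled points.

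The disaccharidases that release these sugars at the brush border gave no call among 4 tested. Sis, sucrase-isomaltase, which yields fructose and glucose, was at 7598, 7160.5 and 7727 CPM against 10367, 8214 and 10948 CPM in wt. No pool overlapped, with a log2 fold change of −0.39 (SE 0.16) and an edgeR adjusted p of 0.271. Lct, the lactase gene, lay the other way on average at 3669 to 4805 against 3374 to 4281 CPM, with overlap. The sodium pump maintains the sodium gradient that Slc5a1 uses, and none of its 3 listed genes was called. Atp1b1, a beta subunit gene, was at 2046, 2025 and 2106 CPM against 1722, 1622 and 1864 CPM, with no overlap (log2 fold change 0.25, SE 0.12, edgeR adjusted p of 0.356).

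Of 11 tested genes that respond to or relay sugar signals, 6 were higher and 5 lower on average, with none called. Pfkfb2, which sets the fructose-2,6-bisphosphate level, was at 119, 106 and 116 CPM against 188, 133 and 175 CPM, and Arrdc4, a glucose-induced arrestin gene, at 23.4 to 29.8 against 33.0 to 34.8 CPM. Neither overlapped, and edgeR gave log2 fold changes of −0.54 (adjusted p of 0.105) and −0.34 (adjusted p of 0.195). Of 9 intestinal transcription factor genes, 7 were higher on average and none called. The homeobox gene Cdx2 was at 266, 279.6 and 204 CPM against 169, 161 and 176 CPM, with a log2 fold change of 0.56 (SE 0.14) and an edgeR adjusted p of 0.0835. Gata4, a factor of the proximal small intestine, was at 154 to 181 against 108 to 147 CPM. Of the 8 markers of the proximal small intestine, Gata4 among them, 5 were higher and 3 lower on average. Gata4 and Slc40a1 were higher and Cck and Gip lower in every pool labelled Rbm47-IKO. Of 7 distal markers, 4 were higher and 3 lower on average, with Fabp6 and Slc51a higher and Gcg lower in every pool labelled Rbm47-IKO. None of either list was called. Among all genes tested, 11.7% were higher and 11.6% lower with no overlap.

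Over all 6 pools, genes were compared by the correlation of their log2 CPM with that of 3 transporters, among 7914 genes with a mean of at least 10 CPM. These r values are a description, since pools share genotype and depth. Closest to Slc5a1 were Plpbp and Slc16a10 with r of 0.998 each and Nsun3 with 0.993. Slc16a10, an aromatic amino acid transporter of the enterocyte, was at 342, 377 and 337 CPM against 525, 462 and 566 CPM. Closest to Slc2a2 were Ube2w (0.938), Phlpp2 (0.937) and Cdip1 (0.934). Closest to Slc2a5 were Ube2j1 (0.993), Cttn (0.991) and Abcg2 (0.988), the last an efflux pump of the brush border. Among the 9 genes themselves, Slc2a7 and Slc5a9 were the most alike, with r of 0.974 over the 6 pools, while Slc2a1 and G6pc were the most opposed, with r of −0.89.

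Markers of other cells were summed in each pool. The summed level of 6 goblet cell markers was 22014 to 25461 CPM in the pools labelled Rbm47-IKO and 16511 to 19320 CPM in wt, with 5 higher and 1 lower on average and none called. That of 8 enteroendocrine markers was 124 to 137 against 168 to 208 CPM, with all 8 lower on average. Of these the hormone gene Ghrl was called, at 1.11 to 1.81 against 3.62 to 4.58 CPM (log2 fold change −1.44, SE 0.27, edgeR adjusted p of 0.0393). Of 6 markers of the villus tip, where mature enterocytes lie, 5 were lower and 1 higher on average, with sums of 2229 to 2864 against 2229 to 3530.3 CPM. Among them the 5′-nucleotidase gene Nt5e was called, at 133, 116 and 124 CPM against 219.9, 241 and 333 CPM (log2 fold change −1.09, SE 0.17, edgeR adjusted p of 0.0219). All 4 Paneth cell markers were lower on average and overlapped, with sums of 411 to 774 against 446 to 1592 CPM. Of 6 leukocyte markers, 4 were lower and 2 higher on average, with sums of 525 to 918 against 805 to 1674 CPM. Of 8 crypt stem and cycling markers, 5 were lower and 3 higher, with sums of 203 to 277 against 203 to 334 CPM. None of these 2 lists was called. Ptprc and Cd79a, and Olfm4 and Pcna of the crypt list, were lower with no overlap, as were 11.6% of all genes. The part of these cells in the results was not tested. The summed level of 4 Y-linked genes was 139, 53.0 and 144 CPM in the pools labelled Rbm47-IKO and 215, 87.9 and 220.3 CPM in wt, overlapping between genotypes. With that sum as a covariate the log2 fold change of Slc5a1 was −0.42, of Slc5a9 −0.68, of Slc2a7 −0.69, of Fbp1 −0.91 and of G6pc −1.65. None of the 9 was called in that fit, and their edgeR adjusted p ranged from 0.141 to 0.933.

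**Figure D5:**
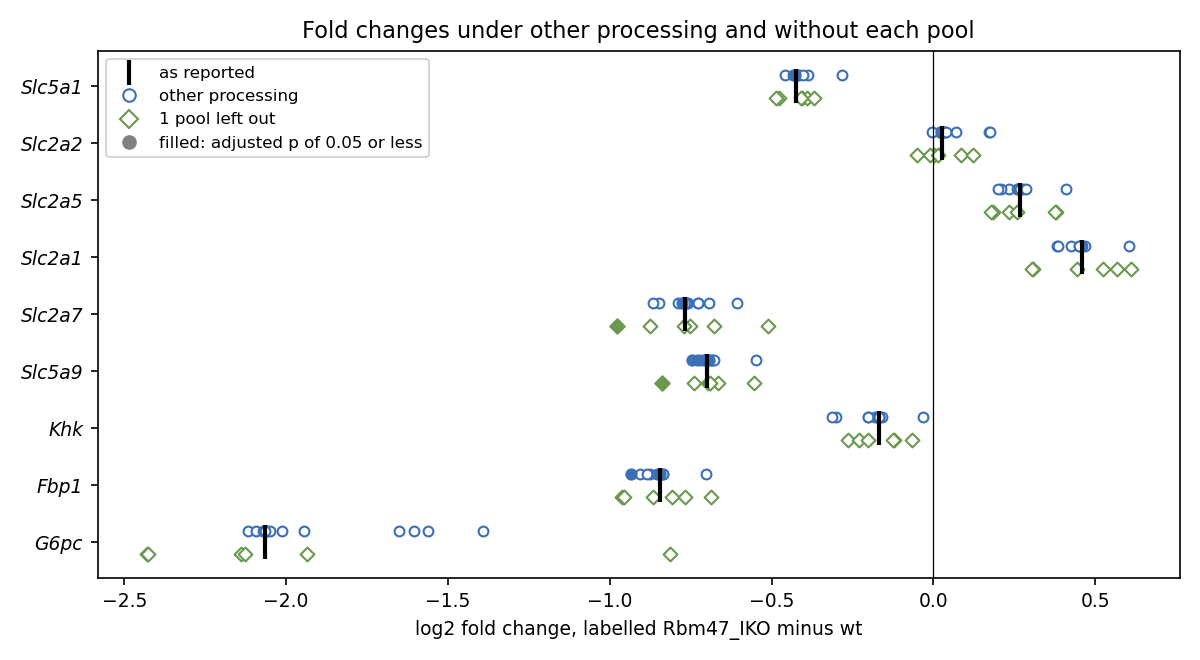
Log2 fold change of each gene as reported (black bar), under 13 other ways of processing (blue circles) and with each of the 6 pools left out in turn (green diamonds); filled symbols have an adjusted p of 0.05 or less. Slc5a1, Slc2a7, Slc5a9, Khk, Fbp1 and G6pc stay below 0 throughout, Slc2a5 and Slc2a1 above it, Slc2a2 crosses it, and G6pc moves from −2.06 to −0.81 without 1 wt pool.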

How the data were processed

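Each of the 6 mucosal RNA pools took its group from its label. For every pool the authors deposited raw read counts of 38561 Ensembl genes, along with CPM values, relative to the column total, and RPKM values, which are that CPM per kilobase of gene. Recomputed from the counts, both differed by less than rounding. The deposited counts were the input here, with gene positions and lengths from the same tables. The submitters' processing notes name STAR 2.5.1a, Subread, featureCounts 1.4.6-p5 and GRCm38, without their roles, and whether strand was used is not given in the sources used here. Symbols were matched for 36639 genes, and those without one held 0.369% of counts.

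Genes past filterByExpr (16425) entered a TMM-normalized fit and the edgeR 4.0.16 quasi-likelihood test (R 4.3.3) of wt against Rbm47_IKO with no covariate, and p-values were Benjamini-Hochberg adjusted over all of them with a threshold of 0.05. DESeq2 1.42.0 and limma 3.58.1 were alternatives, among 12 planned besides leaving out each of the 6 pools. An offset from a lowess curve of each pool on transcript GC content (span 0.3) and the overlap count without wt pool 1 were added after seeing the data. The depth of 31560320 to 38951830 counts limits low genes; sampling of reads without molecular identifiers is not independent. On simulated counts for the 16425 genes past the filter and this comparison, 84% of 4-fold and 38.3% of 2-fold changes were recovered. Of the calls, 8.46% were of unchanged genes. Open reading frames were the longest in each gene's GENCODE M21 transcripts, aligned with Biopython 1.88 (Python 3.11.15).

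The 9 genes, the lists and the tests were chosen with earlier results of these data known. Beside the 9 genes and Rbm47, the text names every called gene and the 2 most abundant per kb of each list, and the 3 genes most like Slc5a1, Slc2a2 and Slc2a5 in pattern. Other genes with values were chosen after their values were seen. Values of some genes on the lists are not reported here.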

Additional observations from a re-analysis of the deposited data

How the results depend on the processing

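The 443 genes called by edgeR became 1243 with DESeq2, 829 with enterocyte markers as the library size (667 higher and 162 lower, against 238 and 205, with the median of all genes shifted by 0.14), 711 with the muscle markers as a covariate, 59 when summed Y-linked genes were a covariate and 270 with the GC offset, which was added after seeing the data. Leaving out 1 pool gave 0 (without pool 2 labelled Rbm47-IKO) to 431 genes, with 32 and 119 without its pools 1 and 3, and 11 without wt pool 3. Of the 9 genes, 4 were called by DESeq2 (Slc5a1, Slc2a7, Slc5a9 and Fbp1). Slc5a9 alone was called, a count of 1, with upper quartile scaling, with library size only, with no filter and with a stricter CPM filter, which called 533, 614, 473 and 550 genes. With a robust dispersion and with the muscle covariate the count was 2 (Slc5a9 and Fbp1), of 506 and 711 genes. Leaving out 1 pool gave 0 to 2, the 2 being Slc2a7 and Slc5a9 without wt pool 1, when 335 genes were called. The cause was not tested.

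Leaving out 1 pool moved the log2 fold change of Slc5a1 between −0.49 and −0.37, Slc5a9 between −0.84 and −0.55, Slc2a7 between −0.98 and −0.51, Fbp1 between −0.96 and −0.69, G6pc between −2.43 and −0.81, Khk between −0.27 and −0.067, Slc2a5 between 0.18 and 0.38 and Slc2a1 between 0.30 and 0.61. Some values changed sign. Those that turned with upper quartile scaling or with enterocyte markers as the library size moved with the median of all genes, which these settings shift by −0.032 and 0.14. Slc2a2 was −0.0049 with upper quartile scaling and −0.050 to 0.12 with 1 pool left out. Slc5a11 was −0.0032 with the muscle covariate, −0.023 with the GC offset and −0.055 to 0.14 with 1 pool left out. Aldh1b1 (0.044) and Creb3l3 (0.086) turned with enterocyte markers as the library size, and with 1 pool left out ranged from −0.21 to 0.075 and from −0.15 to 0.029. Pck1 (0.0067) and Mlx (−0.033) turned with the Y-linked covariate, and with 1 pool left out ranged from −0.60 to 0.41 and from −0.048 to 0.19. Ube2w was −0.021 with upper quartile scaling and −0.034 to 0.050 with 1 pool left out, and Cdip1 −0.011 to 0.19. Slc5a4a passed in 11 of 13 alternatives and 2 of 6 fits without a pool, and Aldoc in 9 of 13 and 1 of 6.

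The same-numbered pools had correlations of their deviations of 0.41, −0.0026 and −0.28, and pools of different number −0.54 to 0.48. With 3 pools per genotype these values cannot decide whether the numbers pair the samples. The summed level of Y-linked genes was lowest in pool 2 of both genotypes, at 53.0 CPM in Rbm47-IKO and 87.9 CPM in wt. With the replicate block, 100 genes and 0 of the 9 were called. The self-test recovered 38.3% of 2-fold changes, so that changes of the size seen here could often be missed.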
